A study of Mus musculus with 6 samples.

Results

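The nonclassical MHC class I genes were followed in mouse melanoma cells with and without Spp1. They were taken as the rows of the deposited expression table whose gene symbol was H2-T23, H2-M3, H2-T22, H2-T10, H2-T24, H2-Q4, H2-Q6, H2-Q7, Cd1d1 or Mr1. Of these 10 genes, 7 were found among the 19213 genes listed, and H2-T24, H2-Q6 and H2-Q7 were not analysed here. PolyA RNA was sequenced from 3 samples of cells carrying a non-targeting control and 3 samples of Spp1 knockout cells made with CRISPR-Cas9, all in 1 batch per the labels. Neither the guides nor whether the knockout cells were a clone, several clones or a pool are given in the sources used here. The label for the cell line is not the same in any 2 samples (control 1 is given as B16F10, knockout 3 as B16F15), so any difference between the cells so named cannot be told apart from the knockout. The labels call the samples biological replicates without saying that they came from separate cultures, so each p-value measures only how far these libraries spread, which may be technical. All values are called scaled reads: reads per gene divided by 1 size factor for the library, as the deposited values show.

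Nonclassical, or class Ib, MHC molecules share the fold of the classical class I molecules and in most cases pair with beta-2 microglobulin, but they vary little between individuals and each shows a narrow kind of ligand to a specialised group of lymphocytes. H2-T23 encodes Qa-1, which presents leader peptides of classical class I molecules to the CD94-NKG2A receptor of natural killer and CD8 T cells. H2-M3 presents N-formylated peptides, H2-T22 and H2-T10 are recognised by gamma delta T cells without a peptide, Cd1d1 presents lipids to natural killer T cells, and Mr1 presents small metabolites of vitamin B2 synthesis to mucosal-associated invariant T cells. Tumour cells of the B16 line are known for a low surface level of class I molecules that interferon raises.

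The table held the targeted gene and the melanocyte markers as labelled. Spp1, which encodes osteopontin, was read 143, 175 and 178 times in the controls and 2, 2 and 4 times in the knockouts. All 10 melanocyte markers examined were listed, with summed levels of 931847 to 949714 scaled reads in control and 1098860 to 1109110 in knockout. Of these markers 5 were higher, 2 (Tyr and Oca2) were lower and 3 did not pass. The recovered depth was 72717465 to 94314770 reads in listed genes per library. Every listed gene had at least 1 read in each library, and how genes were chosen for the table is not stated. Of 15307 genes tested, 9640 (63.0%) changed, and 28.6% of all tested genes were lower and 34.4% higher in knockout (limma, adjusted p under 0.05). These shares are the background for each call below, so the size of a change is given beside it.

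Of the 7 nonclassical genes 6 passed the filter on low values, set at 10 scaled reads or more in 3 libraries or more. H2-T23, H2-T10, Cd1d1 and Mr1 fell in knockout, H2-M3 rose slightly, H2-T22 did not pass the test, and H2-Q4 was too low to be tested. Of all tested genes 67.1% did not overlap between the groups and 30.8% lay lower in every knockout library, and among the 6 tested nonclassical genes these numbers were 6 and 5. At least 2-fold lower and past the test were 5.46% of all genes and 3 of the 6, namely H2-T23, H2-T10 and Mr1. The median log2 change of the 6 tested genes was -1.33, beside 0.0253 for all tested genes. H2-T10 passed the filter only through the control libraries, so that gene had to be lower to be tested at all, and neither the median nor the count stands as support for a shift of the group. In bulk RNA, fewer cells that express a gene and less of its RNA per cell cannot be told apart.

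**Figure D1:**
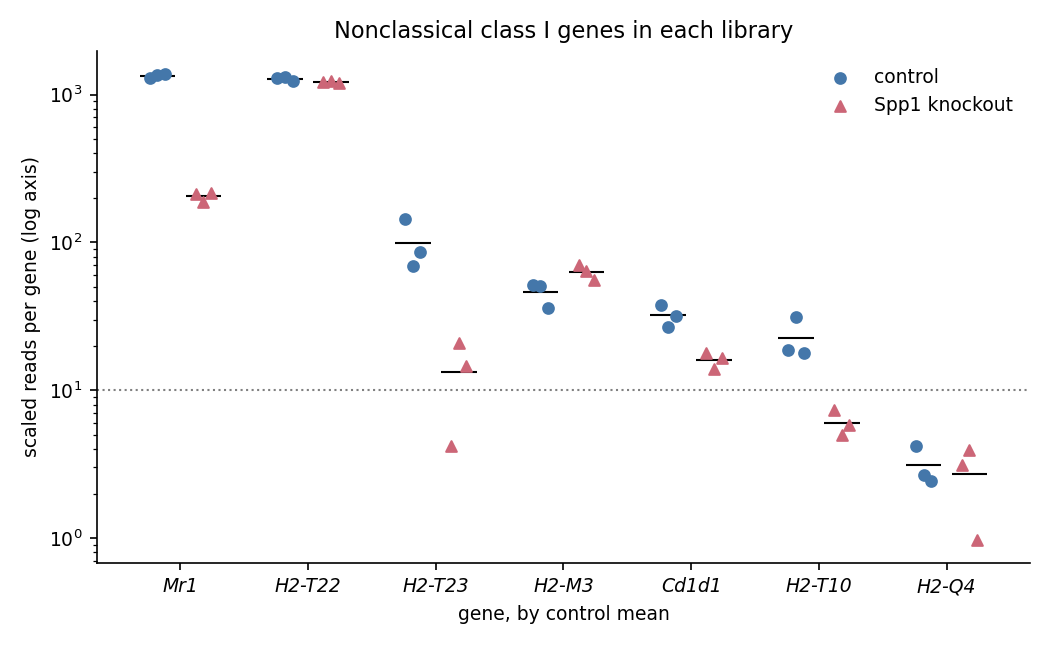
Scaled reads of each of the 7 genes in each library on a log axis, control as circles and Spp1 knockout as triangles, with the mean of each group as a bar and the filter value of 10 as a dotted line. In Mr1, H2-T23, Cd1d1 and H2-T10 the 3 knockout libraries lie clearly under the 3 control libraries, and in H2-T22 the groups lie close together.

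Where the start of each gene lies and what precedes it is shown first for the 4 genes that the results turn on. The promoters printed here are the 250 bases before the RefSeq start on GRCm38.p6, the assembly of mm10, and RefSeq promoters matched 5 of the 7 listed genes. H2-T10 and Cd1d1 had no entry. The RefSeq starts of H2-T23, H2-T22 and H2-M3 lie inside the spans that GENCODE M21 gives for these genes, so the printed bases overlap those spans. H2-T23 and H2-T22 were chosen because they are neighbours that differed in their change, Mr1 for its well measured fall, and H2-M3 for its opposite direction. Capitals mark matches, on either strand, to letters known from class I and class II promoters. These are the core of the interferon-stimulated response element (TTTCACTT), a longer form of that element made of a repeated TTTC with 2 bases between the repeats, the kappaB site of enhancer A, the X1 box (CCTAGCAAC), the X2 box (TGATGAC) and the Y box (CCAAT). The core and the longer form can overlap, as they do in H2-T22.
H2-T23, chr17:36032702-36032951, minus strand: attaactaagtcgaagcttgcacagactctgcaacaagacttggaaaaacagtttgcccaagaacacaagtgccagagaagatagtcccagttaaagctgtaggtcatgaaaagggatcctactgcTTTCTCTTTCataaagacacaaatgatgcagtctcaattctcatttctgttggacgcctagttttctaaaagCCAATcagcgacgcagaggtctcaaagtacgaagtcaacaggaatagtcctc
H2-T22, chr17:36042743-36042992, minus strand: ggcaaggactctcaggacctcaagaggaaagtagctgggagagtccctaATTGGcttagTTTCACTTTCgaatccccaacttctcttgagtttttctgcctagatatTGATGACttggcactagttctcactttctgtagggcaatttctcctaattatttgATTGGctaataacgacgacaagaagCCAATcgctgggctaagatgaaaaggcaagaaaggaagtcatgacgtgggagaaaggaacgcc
Mr1, chr1:155146815-155147064, minus strand: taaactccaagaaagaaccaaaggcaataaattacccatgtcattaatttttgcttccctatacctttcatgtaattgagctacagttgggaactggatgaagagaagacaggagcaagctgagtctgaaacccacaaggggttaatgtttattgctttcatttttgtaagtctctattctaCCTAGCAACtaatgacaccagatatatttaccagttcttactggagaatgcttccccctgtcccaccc
H2-M3, chr17:37269984-37270233, plus strand: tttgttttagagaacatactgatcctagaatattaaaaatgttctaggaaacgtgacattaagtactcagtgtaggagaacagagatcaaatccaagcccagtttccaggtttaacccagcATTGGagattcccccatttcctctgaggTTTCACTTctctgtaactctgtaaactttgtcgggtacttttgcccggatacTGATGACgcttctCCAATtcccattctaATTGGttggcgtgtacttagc

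The promoters of these genes carried different matches. The core response element was found 191 bases before the start of H2-T22, 101 bases before that of H2-M3 and 153 bases before that of H2-Q4, and it is in 1.36% of the 32851 RefSeq promoters of this length. H2-T23 held no match to that core but held the longer form 124 bases before its start, a form present in 2.98% of promoters and also matched in H2-T22. The X2 box, in 2.69% of promoters, was matched in H2-T22, H2-M3 and H2-Q4. The Y box, in 33.8% of promoters, was matched in H2-T23, H2-T22, H2-M3 and H2-Q4. Mr1 held a single match, to the X1 box 68 bases before its start, which 0.694% of promoters hold. The kappaB site, in 0.0852% of promoters, was matched in none of the 5 promoters of listed genes. A match is a description of the letters, and whether any factor was bound was not measured.

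H2-T23, which lies on chromosome 17 from 36029773 to 36032855 on the minus strand of mm10, had the lowest log2 change, with an interval that holds that of Mr1. Without control 1, without knockout 1 or with a pseudocount of 5 Mr1 was the lower of these 2 genes, at -2.73, -2.73 and -2.68 against -2.69, -2.38 and -2.58. The gene stood at 143, 69.7 and 85.4 scaled reads in controls 1, 2 and 3, and at 4.18, 20.8 and 14.6 in knockouts 1, 2 and 3. Control 1 was the highest library and knockout 1 the lowest, and the groups did not overlap. Its control mean was 99.4 ± 38.6 and its knockout mean 13.2 ± 8.39 (SD, n = 3 libraries each). The log2 change was -2.99 ± 0.57 (SE, limma adjusted p = 0.00333), with a 95% interval of -4.36 to -1.62. The reads behind these values were few, 137, 78 and 105 in control and 4, 21 and 15 in knockout. Of the 50-base words in its transcripts 14.5% also occur in other genes, most often in H2-T-ps, a pseudogene of the same region. In all, 0.451% of tested genes had a log2 change as low as that of H2-T23 or lower.

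Among the class I genes compared, the library of control 1 stood out most for H2-T23 and for the classical gene H2-K1. H2-T23 in control 1 was higher than the mean of controls 2 and 3 by 0.88 on the log2 scale, a gap that 0.353% of tested genes reached. H2-K1, a classical class I heavy chain, stood at 947, 491 and 566 scaled reads in the controls, a gap of 0.84. H2-D1 and B2m differed by 0.11 and 0.0058 in the same comparison. Cd1d1 and H2-M3 were higher in control 1 by 0.355 and 0.255, gaps that 4.61% and 7.18% of tested genes reached. H2-T10 went the other way, at -0.319. Without control 1 the change of H2-T23 was -2.69 (limma adjusted p = 0.00471).

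H2-M3 (chromosome 17, 37270220 to 37274484, plus strand) was the only nonclassical gene higher in knockout. It was read at 51.2, 51.0 and 35.8 scaled reads in the controls and 70.1, 64.3 and 55.6 in the knockouts. The groups did not overlap, but the gap from the highest control, 1, to the lowest knockout, 3, was smaller than the SD of the control group. The means were 46.0 ± 8.82 and 63.3 ± 7.27 (SD, n = 3 each), and the log2 change was 0.47 ± 0.18 (SE, limma adjusted p = 0.0378). A change of this size in either direction was seen in 25.1% of all tested genes. The call was lost in 8 of 17 alternative settings, and in 3 of these 1 library was left out. The change was 0.30 without control 3, 0.39 without knockout 1 and 0.45 without knockout 2 (limma adjusted p = 0.176, 0.133 and 0.0881). Only 0.576% of the 50-base words of H2-M3 occur elsewhere, all in H2-T24.

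H2-Q4, which encodes the Qb-1 antigen and lies on chromosome 17 from 35379617 to 35385290, was at the edge of detection. It was read 4, 3 and 3 times in the controls and 3, 4 and 1 times in the knockouts. The values of the groups overlapped. Knockout over control came to 0.884 (exact 95% binomial interval 0.303 to 2.49, which covers counting error only), so a change of up to that size could not be detected at this depth. Of its words 36.4% are shared with other genes.

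H2-T22 and H2-T10 are close relatives in the same stretch of chromosome 17, and they differed in their change. H2-T22 (36037128 to 36042747, minus strand) had the highest level per length of the 7 genes and stood at 1295, 1309.9 and 1243 scaled reads in controls and 1219.7, 1242 and 1199 in the knockouts. The knockouts lay under the controls in every library, by a margin under 1 scaled read between control 3 and knockout 2. The log2 change was -0.07 ± 0.05 (SE, limma adjusted p = 0.198), with a 95% interval of -0.17 to 0.03. It passed with equal totals and net of the median change of neighbouring genes, at -0.12 and -0.23 (limma adjusted p = 0.0353 and 0.000591).

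H2-T10 (36115876 to 36121465, minus strand) is classed as a polymorphic pseudogene in GENCODE M21. Its values were 18.8, 31.3 and 17.9 scaled reads in the controls and 7.32, 4.95 and 5.86 in the knockouts, with no overlap. Control 2 was the highest library. The means were 22.7 ± 7.49 and 6.04 ± 1.20 (SD, n = 3 each), and the log2 change was -1.72 ± 0.32 (SE, limma adjusted p = 0.000211). It rests on 18, 35 and 22 reads in control and 7, 5 and 6 in knockout. Neither gene can be counted free of its relatives. H2-T22 shares 53.5% and H2-T10 50.4% of its 50-base words with other genes, 31.2% and 31.7% with each other, and reads from the shared parts may be dropped or counted for the wrong gene. In exon length 29.4% of H2-T22 overlaps A930015D03Rik and 27.1% of H2-T10 overlaps BC023719. A930015D03Rik stood at 25.8 and 24.8 scaled reads on average and BC023719 at 8.01 and 7.31 in control and knockout, values that overlapped between the groups in both genes.

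The pair was also compared within each library. H2-T23 and H2-T22 lie on the same strand with 4272 bases between them. The log2 ratio of H2-T23 to H2-T22 was -3.17, -4.21 and -3.85 in the controls and -7.88, -5.84 and -6.26 in the knockouts. It differed by -2.92 between the group means (exact permutation test, two-sided, p = 0.1, the smallest that 3 against 3 libraries allow). The ratio of H2-T10 to H2-T22 differed by -1.65, also without overlap between groups and at the same p. H2-T10 passed the filter only through the control libraries, and both ratios restate the values given above, so neither is separate support. The ratios were taken after adding 1 to each value.

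**Figure D2:**
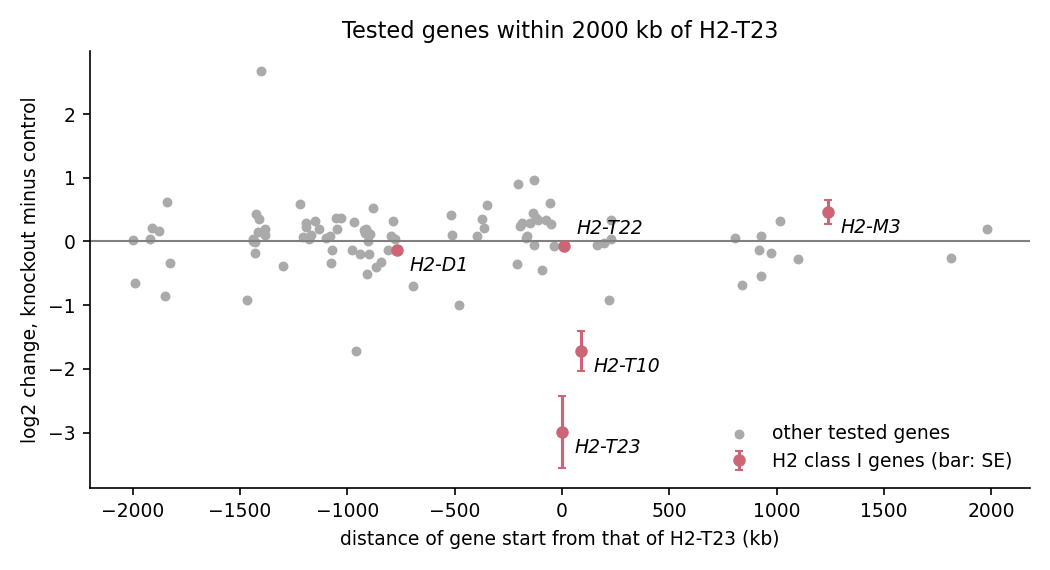
Log2 change of the 99 tested genes whose start lies within 2000 kb of that of H2-T23, against the distance in kb, with H2 class I genes in red with their SE and other genes in grey. H2-T23 has the lowest change of the 99, and H2-T22 beside it lies near 0.

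Most genes around H2-T23 did not fall, which also holds for all tested genes, of which 28.6% fell and 34.4% rose. Of 20 tested genes within 200 kb of H2-T23, 12 rose, 2 fell and 6 did not pass, with a median log2 change of 0.26. H2-T10 was the lowest of them at -1.72. In the wider window of 2000 kb 98 other genes were tested, of which 37 were higher, 16 lower and 0 as low as H2-T23 (limma), with a median of 0.0886. The median deviation of the 25 tested genes on each side, with nonclassical genes left out, was also subtracted in each library. H2-T23 then stood at -3.14 and H2-T10 at -1.87.

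Cd1d1, the lipid-presenting gene on chromosome 3 (86995834 to 86999441, minus strand), was lower in every knockout library and close to 2-fold lower on average. It stood at 37.6, 26.8 and 31.7 scaled reads in the controls and 17.8, 13.8 and 16.6 in the knockouts. Each knockout library lay under each control library. The means were 32.1 ± 5.39 and 16.1 ± 2.02 (SD, n = 3 each), a ratio of 0.502. The log2 change was -0.95 ± 0.23 (SE, limma adjusted p = 0.00239), with a 95% interval of -1.45 to -0.45. With the neighbours' median deviation subtracted in the same way, the change of Cd1d1 was -0.59 (limma adjusted p = 0.0461). The 4 tested genes within 200 kb ranged from -0.20 to 0.64. In DESeq2 on 5 libraries the call was lost (adjusted p = 0.0708). Of its words 19.1% are shared with Cd1d2.

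Mr1, on chromosome 1 from 155127277 to 155146814 on the minus strand, gave the most precise result among the 4 nonclassical genes that fell. It was read at 1293, 1355 and 1377 scaled reads in the controls and at 212, 189 and 215 in the knockouts. The libraries within each group lay close together and the groups were far apart. The mean fell from 1341 ± 43.4 to 205 ± 14.2 (SD, n = 3 each), 6.53-fold. The log2 change was -2.70 ± 0.07 (SE, limma adjusted p = 1.87e-13), with a 95% interval of -2.85 to -2.55. No 50-base word of Mr1 occurs in another gene and no exon overlaps one. The 3 tested genes within 200 kb ranged from -0.63 to 0.027. A log2 change as low or lower was found in 0.608% of all tested genes.

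**Figure D3:**
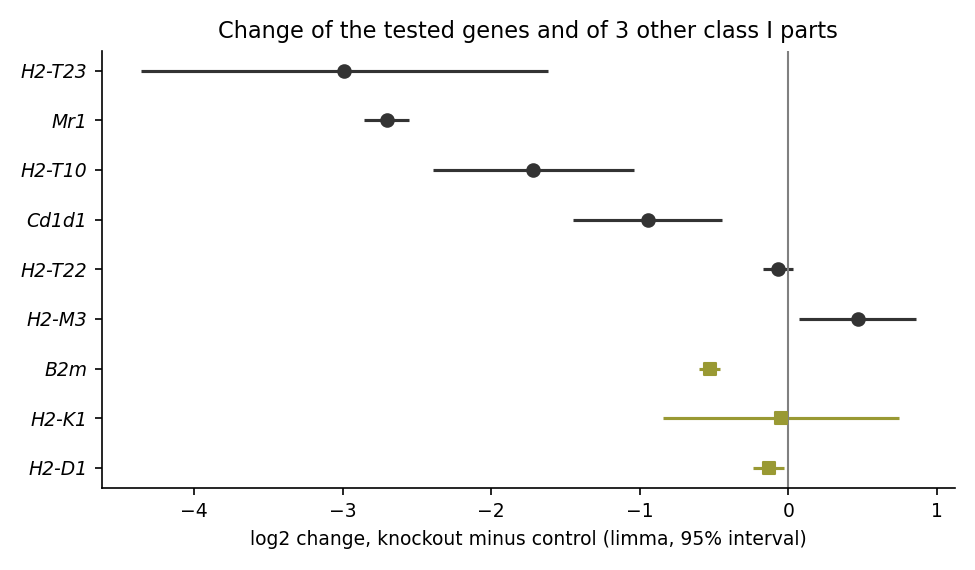
Log2 change of the 6 tested nonclassical genes (circles) and of B2m, H2-K1 and H2-D1 (squares), knockout minus control, with 95% limma intervals. Of the 4 nonclassical genes that fell, Mr1 has the narrowest interval and H2-T23 the widest, and the interval of H2-K1 spans 0.

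Per length of exon the order of the genes changed between the groups. The whole exon length was used, though reads from parts shared with other genes may be dropped or counted for the wrong gene. Such sharing differs between genes (53.5% of words in H2-T22, 50.4% in H2-T10 and 0% in Mr1), so the order between genes is uncertain. In control H2-T22 led with 376 scaled reads per kb (364 to 384 over the 3 libraries), followed by Mr1 with 224 ± 7.26. H2-T23 and H2-M3 came next at 34.4 ± 13.4 and 32.0 ± 6.13, and their ranges overlapped. Cd1d1, H2-T10 and H2-Q4 followed at 12.5 ± 2.10, 6.63 ± 2.19 and 1.19 ± 0.362 scaled reads per kb, without overlap between neighbours in this order. In knockout H2-T22 still led with 357 ± 6.43 scaled reads per kb. H2-M3 was then next at 44.0 ± 5.06, ahead of Mr1 at 34.3 ± 2.38. Cd1d1, H2-T23, H2-T10 and H2-Q4 came last, at 6.25, 4.57, 1.77 and 1.04 scaled reads per kb, and each overlapped the next. All errors are SD over 3 libraries. The classical heavy chain H2-D1 stood at 738 and 673 scaled reads per kb in control and knockout, above every nonclassical gene. The other classical heavy chain listed, H2-K1, stood at 227 ± 83.3 and 212 ± 27.9, below H2-T22 in both groups.

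**Figure D4:**
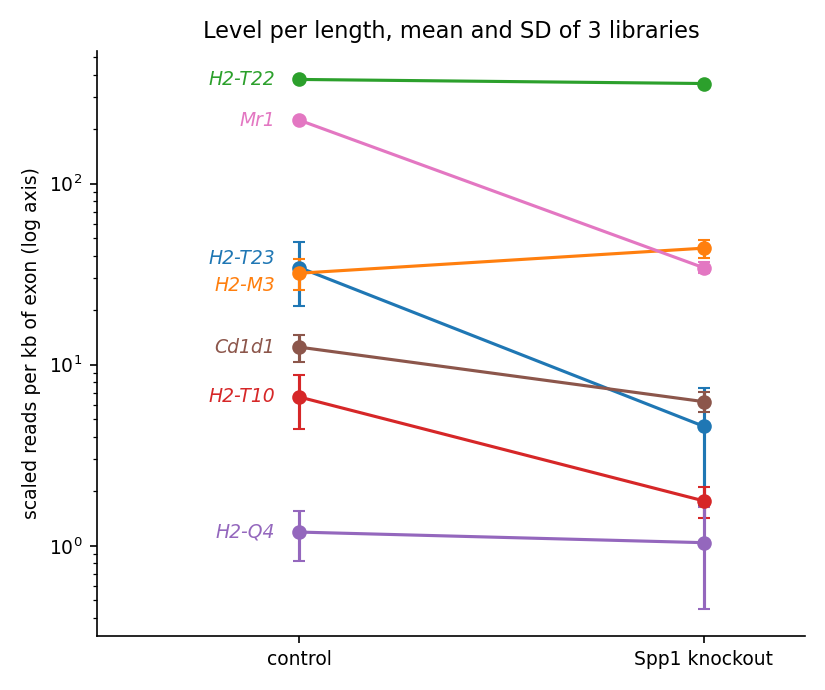
Mean level of each gene per kb of exon in control and Spp1 knockout on a log axis, with the SD of 3 libraries. The line of H2-T22 is nearly flat at 376 and 357, that of Mr1 falls from 224 to 34.3, and H2-M3 crosses above Mr1.

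The shared light chain and the peptide supply moved in both directions. In the list of class I partners and peptide supply 6 of 13 tested genes were lower and 5 were higher (median log2 change -0.28). Among all tested genes 28.6% were lower and 34.4% higher. B2m, the light chain, fell from 12122 ± 326 to 8405 ± 204 scaled reads (SD, n = 3), which is -0.53 ± 0.03 on the log2 scale (SE; limma adjusted p = 2.19e-09). Psmb9, an immunoproteasome subunit, averaged 19.1 scaled reads in control and fell by 0.86 (log2). Tapbp, which encodes the peptide editor tapasin, fell by 0.65, while Tap1, a peptide transporter subunit, rose by 0.62. Tap2, also a subunit of that transporter, did not pass, at -0.34 (limma adjusted p = 0.106). Mr1 over B2m, as a log2 ratio, averaged -3.17 ± 0.0559 in controls and -5.35 ± 0.129 in knockouts (SD, n = 3; exact permutation p = 0.1, two-sided, the smallest possible), and each knockout library lay below each control library.

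Of the other H2 class I genes in the list, 3 of 24 were listed and 2 tested. H2-D1 fell by 0.13 on the log2 scale (limma adjusted p = 0.0281), a call lost without control 1, without knockout 3 and without trend and robust estimation. H2-K1 did not pass, at -0.05 ± 0.30 (SE, limma adjusted p = 0.895), with a 95% interval of -0.85 to 0.74 that leaves room for a fall as large as that of B2m. H2-M5, below the filter, averaged 6.74 and 6.66 scaled reads in control and knockout.

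Regulators of class I transcription were divided as well, with 6 of 13 tested genes lower, 5 higher and a median of -0.04. The shares over all tested genes were 28.6% lower and 34.4% higher. Nlrc5, the transactivator of class I genes, fell from 51.1 ± 4.20 to 13.5 ± 5.84 scaled reads (SD, n = 3), a log2 change of -1.94. Rfx5, which binds the X box, fell by 0.90. Of the subunits of the Y box factor, Nfyb fell by 0.52 while Nfya rose by 0.41 and Nfyc by 0.18 (limma adjusted p = 7.64e-08 and 0.000781). Net of the neighbours' median 4 of the list were lower and 4 higher.

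For the lipid route, 4 of 10 tested genes of CD1d loading and sorting rose and 4 fell, with a median of -0.0089. Over all tested genes 34.4% rose and 28.6% fell. Psap, the precursor of the saposins that load lipids onto CD1d, fell from 36449 ± 586 to 18469 ± 734 scaled reads (SD, n = 3), a log2 change of -0.98. Ap3d1, a subunit of the adaptor that sorts mouse CD1d to lysosomes, fell by 0.57. Of the other subunits in the list, Ap3m1 fell by 0.08, Ap3s1 rose by 0.14 and Ap3b1 did not pass. Ctsl, a lysosomal protease, rose by 0.50, and Mttp, a lipid transfer protein, by 0.32.

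Genes with a class I-like fold outside the H2 region were mostly lower. Of 8 tested, 6 fell, 1 rose and 1 did not pass, with a median log2 change of -0.71. Beside this, 28.6% of all tested genes fell and 34.4% rose. H60b, like H2-T10, passed the filter only through the control libraries, so it had to be lower to be counted. H60b fell by 3.13 on the log2 scale, Ulbp1 fell by 2.91 and Mill2 fell by 1.97. The first 2 encode proteins that bind NKG2D on natural killer cells. Azgp1, which encodes a secreted zinc-binding glycoprotein, rose by 1.23.

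The lists of immune cell markers were examined beside these changes. Of 14 markers 5 were listed, and the general leukocyte gene Ptprc and the T cell genes Cd3e and Cd3d were not analysed here. The summed level of the 5 was 296 to 314 scaled reads in control and 103 to 113 in knockout, mostly from Lyz2 and Cd68. Of these, 3 of 4 tested were lower, beside 28.6% of all tested genes. Cd14, 1 of the 3, passed the filter only through the control libraries. Csf1r, a defining macrophage gene, stood at 1.04 to 4.07 scaled reads in control and 1.05 to 5.86 in knockout. Of 9 receptor genes of lymphocytes that bind these molecules only Cd160 was listed, at 0.976 to 4.18 scaled reads over all libraries. In the list of fibroblast and endothelial markers 3 of 8 were listed, with sums of 218 to 249.6 in control and 137 to 158 in knockout, nearly all from Pdgfra. The part of such cells in the changes of the nonclassical genes was not tested.

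The genes whose pattern over the 6 libraries was most like that of H2-T23 were Pdxdc1, Irs3, Nckap1l, Arhgef25 and Gpr85, with Pearson r of 0.999, 0.997, 0.996, 0.995 and 0.991 on the log2 scale (n = 6 libraries, which share group, depth and scaling). They lie on chromosomes 16, 5, 15, 10 and 6. Their log2 changes ranged from -1.89 for Nckap1l, a gene known from blood cells, to -0.09 for Pdxdc1. An r of at least 0.95 was reached by 291 of 15306 genes.

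**Figure D5:**
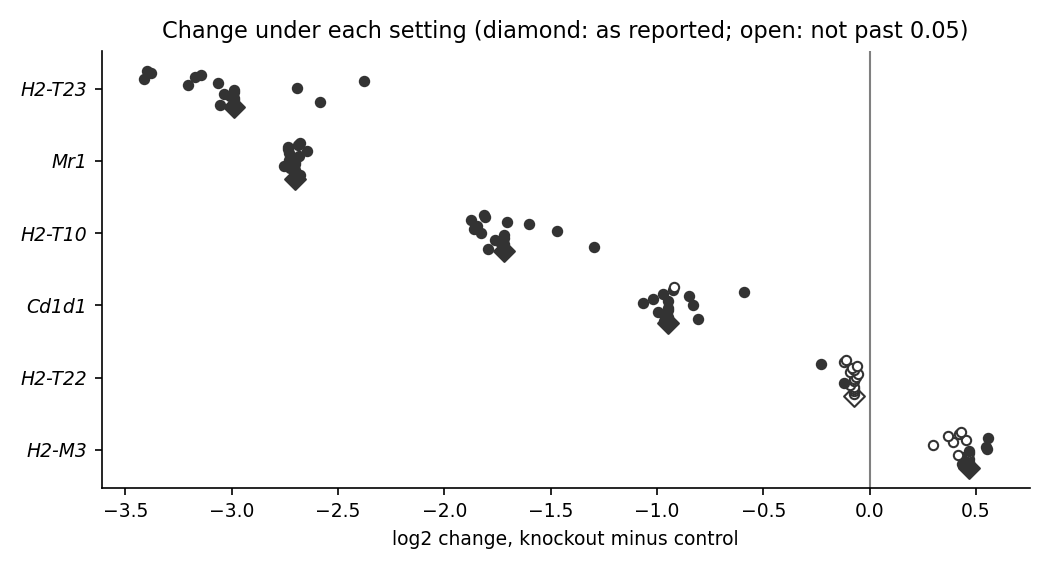
Log2 change of each tested gene as reported (diamond) and under every alternative setting (circles), filled where the adjusted p was under 0.05 and open where it was not. H2-T23, Mr1 and H2-T10 stay filled throughout, Cd1d1 has 1 open circle, and H2-M3 and H2-T22 hold both kinds.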

How the data were processed

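The authors deposited 1 table of signal values per gene, scaled with DESeq per the series' design text; that each is reads divided by 1 factor per library was read from the values. Tools in the submitters' processing notes are STAR 2.5.0a, cutadapt 1.6, DESeq and HTSeq 0.5.3, on mm10. The annotation, the strand setting and any filter on genes were not given in the sources used here. All values were whole multiples of their column's smallest value (100% within 0.001), taken as 1 read. For knockout 2, where 1 read equals 0.989, recovered reads are printed but stayed out of the count tests in edgeR and DESeq2. The binomial interval of H2-Q4 did use the reads of knockout 2. On the other 5 libraries edgeR 4.0.16 called 8879 genes and DESeq2 1.42.0 called 8123.

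Log2(value + 1) was compared in limma 3.58.1 (R 4.3.3), two-sided, with trended and robust variance, over genes with at least 10 in at least 3 libraries, with Benjamini-Hochberg adjustment over all 15307 and a threshold of 0.05. The fit was run on simulated data with 200 changed genes and the same low dispersion for every gene. That run does not test noisy low genes or a change as widespread as the one seen here. Log2 changes on this scale understate those of low genes. GENCODE M21 (GRCm38, the assembly of mm10) gave positions and exon lengths for 19121 genes, matched by ID. Sharing was the share of 50-base transcript words found in other genes. The nonclassical genes, the other gene lists, the promoter motifs and tests were chosen with earlier results of these data known. All nonclassical genes are named, with Spp1, up to 4 changed genes per list, B2m, Nlrc5, H2-K1 and H2-D1 always, and the 5 genes most like the most changed of them; other genes were named after their values were seen. One regulator that the rule names is not reported here. No replicate pair was a duplicate: chi-square divided by its degrees of freedom was 6.36 to 18.3.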

Additional observations from a re-analysis of the deposited data

How the results depend on the processing

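Over 17 alternative settings none of the 6 tested genes changed direction. The calls of H2-T23, Mr1 and Spp1 held in all 17, and that of H2-T10 in the 16 that tested it, with changes from -3.41 to -2.38 for H2-T23, -2.75 to -2.65 for Mr1 and -1.87 to -1.30 for H2-T10. With a minimum of 50 scaled reads 3 of 4 tested genes changed, 2 of them lower, because H2-T10 and Cd1d1 were no longer tested. Over all genes 8959 of 12593 tested changed under that minimum. In DESeq2 on 5 libraries 3 of the 6 changed, all lower, beside 8123 of all 15307 genes tested. The number of genes higher, 1 as reported, was 0 with equal totals, without trend and robust estimation, net of the neighbours' median, in edgeR and in DESeq2; at an unadjusted p under 0.05 it was 1 in the first 2 of these (limma) and 0 in the others. In these settings 4110 to 4883 of all tested genes were higher, beside 5266 as reported. Leaving out 1 library gave 4 to 5 changed genes of 6, 4 lower in each case, and 0 to 1 higher. Over all 15307 genes 8929 to 9491 changed with 1 library left out. The cause was not tested. Of the other H2 class I genes 1 changed as reported, 0 without trend and robust estimation (also 0 unadjusted), and 0 to 1 with 1 library left out. In the other lists the number changed in either direction stayed within 1.5 times, but net of the neighbours' median the genes higher went from 5 to 3 among partners and peptide supply and from 1 to 2 in the class I-like fold list. Replicate numbers gave no pairing. After each gene's group mean was subtracted, the deviations of same-numbered samples correlated at -0.107, -0.244 and -0.038. With the replicate block 5 genes changed, 4 lower and 1 higher, out of 9289 calls in all genes in place of 9640. Low depth limits H2-Q4, H2-T10, Cd1d1 and the knockout level of H2-T23.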
